A study of Homo sapiens with 24 samples.

Results

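Among 24 arrays of the human bladder cancer cell line RT112, 3 carried almost no signal for ARMCX3, a mitochondrial gene of the X chromosome, while their signal for TACC3 was high. These 3 arrays were set against 6 comparison arrays that had the same high TACC3 signal and a clear ARMCX3 signal, so that 9 of the 24 arrays are described here. The arrays were chosen by measured levels and not by their labels. All levels are log2 array signals, on which a step of 1 is a 2-fold difference. An array entered when the TACC3 probe set read at least 11.6, which 15 arrays did. Of those, the ARMCX3-low arrays had their brightest ARMCX3 probe set below 7. The comparison arrays had it above 7, read at least 11.6 on the FGFR3 probe set, and had a brightest GAS1 probe set below 7.5.

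The study placed an inducible short hairpin RNA against FGFR3 in RT112 cells, or one against EGFP, a jellyfish gene used as the control target. The labels name 3 FGFR3 hairpin lines, called 2-4, 4-1 and 6-16, and 1 EGFP line, each with and without doxycycline, in 8 groups of 3 arrays. Cells of all groups were kept in medium with 1% serum for 48 h, and the treated ones received doxycycline at 1 µg/ml, which switches the hairpin on. Total RNA was then measured on Affymetrix arrays. The ARMCX3-low arrays were labelled EGFP without doxycycline (replicate 2), FGFR3 4-1 with doxycycline (replicate 2) and FGFR3 6-16 without doxycycline (replicate 2). The comparison arrays were labelled EGFP with doxycycline (replicates 1 and 2), FGFR3 2-4 without doxycycline (replicate 1), FGFR3 2-4 with doxycycline (replicate 1), FGFR3 4-1 with doxycycline (replicate 3) and FGFR3 6-16 with doxycycline (replicate 1). The labels do not say whether a line was 1 clone or a pool, or whether replicates came from separate cultures, so the spread given here may be technical.

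ARMCX3, also called Alex3, is an armadillo-repeat protein of the outer mitochondrial membrane that takes part in moving mitochondria along the cytoskeleton. It lies on the long arm of the X chromosome in a mammalian gene cluster with other ARMCX genes and with the small BEX and TCEAL genes. RT112 is known to carry a fusion of FGFR3 and TACC3, whose product is a constantly active receptor kinase, and the array levels do not separate the fusion transcript from that of TACC3 itself. The line grew from a urothelial tumour, and urothelium is described by luminal genes such as the uroplakins and by basal genes such as the basal keratins.

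The labels and the levels did not run together. The ARMCX3-low arrays carried 3 different hairpin labels, and 1 of them was labelled with doxycycline. Of the 6 comparison arrays 5 were labelled so, and the side and the doxycycline label were therefore not balanced. Their parts in the differences were not told apart. Over all 24 arrays, 6 had a low ARMCX3 level, and 5 of those 6 carried replicate number 2. FGFR3, the hairpin target, read 12.19 on the ARMCX3-low array labelled 4-1 with doxycycline, 12.22 on the one labelled EGFP without and 12.22 on the one labelled 6-16 without. On the comparison arrays FGFR3 ran from 11.92 to 12.08 with a median of 12.02, below the 4-1 array labelled with doxycycline. The other FGFR3 probe set overlapped, with means of 10.55 and 10.49. FGFR3 took part in choosing the comparison arrays, and TACC3 in choosing both sides. Arrays low in these were thus left out beforehand, and nothing about the labels is read from these FGFR3 levels. Whether every label belongs to its array was not tested, and the tests by label given next rest on the labels as deposited. Between the 4 labelled lines 0 of 19775 genes passed limma's F-test at an adjusted p under 0.05 (0%), and for the change with doxycycline in the FGFR3 lines minus that in the EGFP line 0 genes passed (0%). At an unadjusted p under 0.05 the counts were 367 (1.86%) and 428 (2.16%). These 2 counts were not stable: with array weights they were 3179 and 2755, and leaving out 1 array moved the first to between 224 (without EGFP with doxycycline, replicate 3) and 717 (without FGFR3 4-1 without doxycycline, replicate 2) and the second to between 295 (without EGFP without doxycycline, replicate 1) and 1021 (without EGFP without doxycycline, replicate 2). In the fit to all arrays, 0 of the 172 genes described next were among either. The labelled groups mix ARMCX3-low and other arrays, so such genes vary widely within groups (SD of ARMCX3 2.58). A low p was therefore hardly within reach for them, and nothing is read from this 0. Because measured levels chose the sides, no test of side against side was made, and differences are given with their spread alone.

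ARMCX3 read 4.93, 4.63 and 4.87 on the ARMCX3-low arrays, in the order of labels given above. On the 6 comparison arrays its lowest, median and highest levels were 9.50, 9.61 and 9.65. The means were 4.81 ± 0.16 (SD, n = 3) and 9.60 ± 0.052 (SD, n = 6), a difference of -4.79, which the choice of arrays fixed. The lower mean is near the bottom of the array's range, with 6.04% of genes at or below it. Calls of presence or absence were not used here, so differences from such low levels may understate the true ones. The other ARMCX3 probe set differed by -5.03. No array lay between the sides: the next ARMCX3 level above 4.93 among the 15 arrays with high TACC3 was 9.45. TACC3 itself, the centrosomal partner of the fusion, was 11.96, 11.94 and 11.82 against 11.83 to 12.12, and the sides overlapped. For its threshold, the highest level below was 11.43 and the lowest above was 11.82. For FGFR3 the levels next to the threshold were 11.43 and 11.92, and for GAS1, a growth-arrest gene whose protein sits on the cell surface, they were 6.45 and 8.52. In RNA from whole cultures, fewer cells that express a gene and less of its RNA per cell cannot be told apart.

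A gene is called here when the levels of the 2 sides did not overlap and their means differed at least 2-fold. Of 19775 measured genes, 172 were called (0.87%), 125 lower on the ARMCX3-low arrays (0.632%) and 47 higher (0.238%). ARMCX3, which chose the arrays, is counted among the lower genes here and below. Without the fold limit, 4549 genes did not overlap (23.0%), 2738 lower (13.8%) and 1811 higher (9.16%). The median difference over all genes was -0.018. Most calls were of moderate size, with a median difference of -1.38 among the lower and 1.32 among the higher genes. At least 8-fold differences were seen for 10 lower genes and 1 higher gene. Within a side the arrays lay close together, with a median SD of the called genes of 0.119 on the ARMCX3-low arrays and 0.096 on the comparison arrays.

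**Figure D1:**
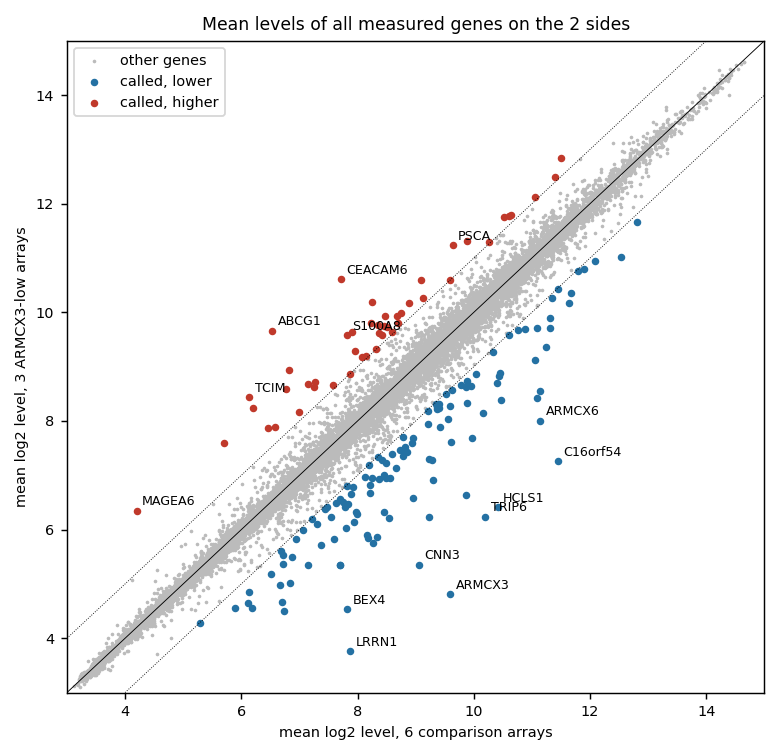
Mean log2 level of every measured gene on the 6 comparison arrays (horizontal axis) and on the 3 ARMCX3-low arrays (vertical axis); each point is a gene, the solid line marks equal levels and the dotted lines a 2-fold difference. Blue points are the 125 called lower genes and red points the 47 called higher genes; ARMCX3 and C16orf54 lie farthest below the line and ABCG1 farthest above it.

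After ARMCX3, the largest differences among the lower genes were those of C16orf54, LRRN1, HCLS1, TRIP6 and CNN3. C16orf54, a putative membrane protein, read 7.06, 7.21 and 7.53 against 11.24 to 11.60, a difference of -4.18. LRRN1, a leucine-rich repeat membrane protein of neural tissue, read 3.72, 3.89 and 3.66 against 7.63 to 8.01, a difference of -4.12. Only 1.31% of genes were at or below the LRRN1 mean of the ARMCX3-low arrays, and 9.57% at or below that of CNN3, so the places of both in this order are uncertain. HCLS1, a cortactin relative of blood cells that binds actin, read 6.23, 6.46 and 6.54 against 10.39 to 10.46. In none of these did an ARMCX3-low array come near a comparison array. TRIP6, a LIM protein of focal adhesions, was lower by a difference of -3.96 and CNN3, an actin-binding calponin, by -3.71. CNN3 varied more among the ARMCX3-low arrays than the others, at 5.95, 4.91 and 5.19. IQGAP2, a scaffold for small GTPases, was 9.34-fold lower on the probe set used and lower by a mean difference of -1.57 over its probe sets, the ubiquitin-conjugating enzyme UBE2E2 8.01-fold lower, and SPP1, the secreted matrix protein osteopontin, 6.35-fold lower.

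On the higher side ABCG1 led, an exporter of cholesterol. It read 9.47, 9.73 and 9.78 against a lowest, median and highest of 6.33, 6.54 and 6.66, which is 8.75-fold higher. CEACAM6, a surface glycoprotein of epithelial cells, read 10.45, 10.71 and 10.66 against 7.67 to 7.79. For both genes every ARMCX3-low array lay above every comparison array. TCIM, a small regulator of WNT signalling, differed by 2.30 and POF1B, an actin-binding protein of epithelial junctions, by 2.11. Over all probe sets of a gene the mean difference was smaller for ABCG1 (1.501), POF1B (1.36) and CST6 (1.07), and for POU2F3 it was under 2-fold (0.93). The protease inhibitor CST6 differed by 1.95, the transcription factor POU2F3 by 1.89, the G protein subunit GNG4 by 1.73, and PLAU, the urokinase protease, by 1.83. MAGEA6, an antigen normally made in testis, differed by 2.15, and its probes may also read its near-identical relative MAGEA3.

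**Figure D2:**
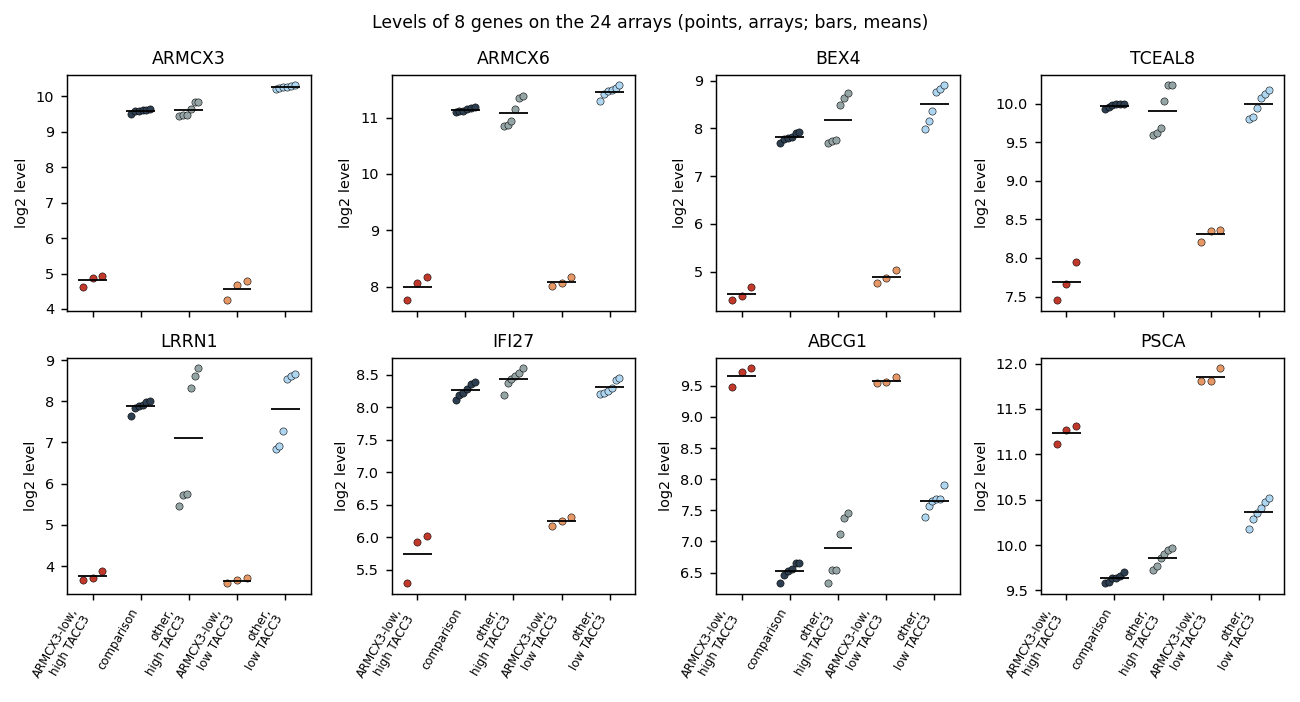
Log2 levels of 8 genes on all 24 arrays, split into the 3 ARMCX3-low and 6 comparison arrays, the other 6 arrays with high TACC3, and the 3 ARMCX3-low and 6 other arrays with low TACC3; points are arrays and bars are means. In each panel the ARMCX3-low arrays of both TACC3 levels lie on the same side of the others, as for ABCG1, at 9.47 to 9.78 against 6.33 to 7.90; the ARMCX3 levels formed these sets.

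The X chromosome cluster around ARMCX3 was not lower as a block. Of 21 measured genes of the ARMCX, BEX and TCEAL families and their relatives, 5 were called lower, 11 were lower without overlap and 2 were higher without overlap, with a median difference of -0.147. The lower counts include ARMCX3, which chose the arrays. In this and each list or group of genes below, the counts without overlap stand beside 13.8% lower and 9.16% higher over all genes. The called counts stand beside 0.632% called lower and 0.238% called higher. ARMCX6, next to ARMCX3 in the gene order, read 8.17, 7.76 and 8.07 against 11.09 to 11.18, a difference of -3.14. A dimmer ARMCX6 probe set overlapped, with means of 7.36 and 7.38. BEX4, a small protein tied to microtubules, read 4.41, 4.69 and 4.49 against 7.70 to 7.93. TCEAL8, of the transcription elongation factor A-like family, read 7.46, 7.67 and 7.95 against 9.93 to 9.99, and BEX2 differed by -1.16. So 4 genes of the cluster other than ARMCX3 were at least 2-fold lower, and their arrays did not overlap. The nearer ARMCX genes did not follow: ARMCX1 read 4.20, 4.16 and 4.02 against 4.14 to 4.39, ARMCX2 read 4.93, 4.82 and 4.87 against 4.73 to 5.06, and both are low on all arrays. ARMCX4 and ARMCX5, at 7.44 to 7.59 and 8.21 to 8.41 on the ARMCX3-low arrays, overlapped the comparison arrays too. TCEAL1 was higher by 0.78 and BEX5 by 0.44. Of the other measured neighbours, the kinase gene BTK, the RNA export gene NXF5 and the zinc finger gene ZMAT1 overlapped, and GLA, the lysosomal alpha-galactosidase, was lower by a difference of -0.21 without overlap.

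Genes of mitochondrial transport and dynamics, the process ARMCX3 is known for, differed little. Of 27 measured, 0 were called, 1 was lower and 4 were higher without overlap, and the median difference was 0.060. TRAK2 and TRAK1, adaptors that link mitochondria to motors, were higher by 0.32 and 0.26. MIEF2, a fission receptor of the outer membrane, read 9.26, 9.18 and 9.08 against 9.84 to 10.08, and it lies in the stretch of chromosome 17 described below.

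Interferon-stimulated genes, which cells switch on through the STAT and IRF factors, were among the lower genes. The element these factors bind was searched in the 300 bases of RefSeq promoter around each start site (250 before and 50 after, assembly GRCh38.p14), for which 15384 of the 19775 genes had a sequence. The promoters of IFI27, IFI6, IFIT1 and IFI44L are shown as examples of called interferon genes, each with at least 2 matches to GAAA, any 2 bases and GAAA again, with capitals marking the matches on either strand. They are IFI27 at chr14:94110486-94110785 (+ strand), IFI6 at chr1:27672143-27672442 (- strand), IFIT1 at chr10:89392373-89392672 (+ strand) and IFI44L at chr1:78620198-78620497 (+ strand), each read in the direction of its gene.
IFI27: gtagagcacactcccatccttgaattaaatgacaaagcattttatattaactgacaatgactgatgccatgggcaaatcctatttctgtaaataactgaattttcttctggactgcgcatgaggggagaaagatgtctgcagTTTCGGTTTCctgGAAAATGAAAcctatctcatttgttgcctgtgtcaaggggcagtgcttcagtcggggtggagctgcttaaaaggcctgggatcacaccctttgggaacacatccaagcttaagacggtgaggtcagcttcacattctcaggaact
IFI6: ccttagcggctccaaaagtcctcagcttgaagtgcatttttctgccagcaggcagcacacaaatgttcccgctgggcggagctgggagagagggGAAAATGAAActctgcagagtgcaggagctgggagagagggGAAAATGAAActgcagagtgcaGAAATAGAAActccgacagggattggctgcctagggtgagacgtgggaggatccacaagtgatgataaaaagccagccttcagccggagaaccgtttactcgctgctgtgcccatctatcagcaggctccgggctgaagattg
IFIT1: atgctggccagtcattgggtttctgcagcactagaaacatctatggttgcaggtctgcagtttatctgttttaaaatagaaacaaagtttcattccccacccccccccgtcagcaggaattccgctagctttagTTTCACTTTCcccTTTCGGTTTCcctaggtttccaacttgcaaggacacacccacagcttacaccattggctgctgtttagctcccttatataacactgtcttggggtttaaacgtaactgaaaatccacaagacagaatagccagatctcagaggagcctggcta
IFI44L: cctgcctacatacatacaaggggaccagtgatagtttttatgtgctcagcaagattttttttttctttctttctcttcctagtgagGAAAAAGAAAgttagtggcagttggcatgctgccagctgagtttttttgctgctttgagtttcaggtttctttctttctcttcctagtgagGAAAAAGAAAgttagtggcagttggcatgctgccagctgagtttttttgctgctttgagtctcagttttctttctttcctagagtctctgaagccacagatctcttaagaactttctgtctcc
The motif was present in all 6 of the called interferon genes, in 18 of the 28 listed interferon genes with a promoter sequence (64.3%), and in 2.94% of all promoters. It was found in 11 of 100 promoters of called lower genes and in 0 of 34 of called higher genes. The 11 include the same 6 interferon genes, and the others are ARHGEF6, FAM171B, FEZ1, GIMAP2 and TVP23B. A match describes the sequence alone.

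Of 36 measured interferon-stimulated genes, 6 were called, all lower, beside 0.632% of all genes called lower. A further 15 were lower without overlap, for 21 in all, and 4 were higher without overlap. The list median was -0.305, against -0.018 over all genes. IFI27, a small protein of mitochondria and nuclear membrane, read 5.29, 6.02 and 5.93 against 8.11 to 8.40, or 5.71-fold lower. IFI6, which limits cell death, read 6.65, 7.05 and 7.07 against 9.06 to 9.42. IFIT1, which binds foreign RNA, read 7.25, 7.21 and 7.22 against 8.41 to 8.58. The arrays of the 2 sides were clearly apart for these genes, and IFIT1 barely varied among the ARMCX3-low arrays. IFI44 differed by -1.54, IFI44L by -1.19 and ISG15, a ubiquitin-like modifier, by -1.08. IFITM1 was lower by a difference of -0.92, while BST2, which tethers viruses, was higher by 0.57, GBP2 by 0.54, MX2 by 0.43 and OAS1 by 0.37. Genes of MHC antigen presentation showed no call among 25, with 9 lower without overlap, led by the immunoproteasome subunit PSMB9 at -0.99.

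**Figure D3:**
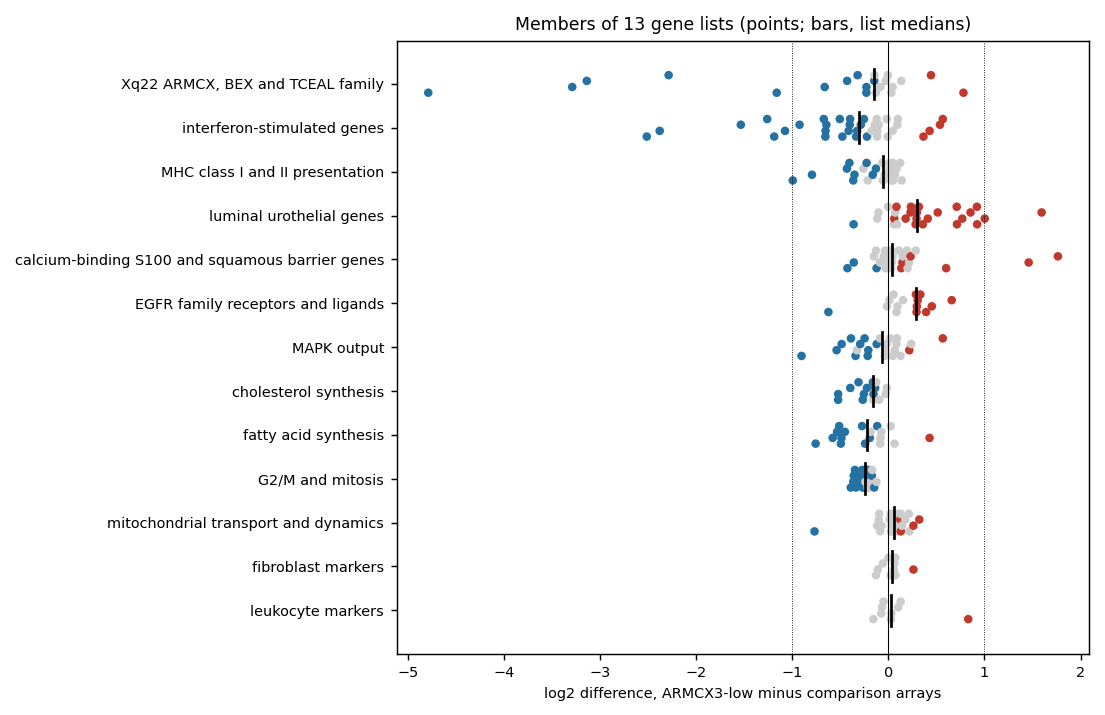
Log2 difference, ARMCX3-low minus comparison arrays, for each measured member of 13 gene lists; points are genes, coloured blue where the ARMCX3-low arrays were lower without overlap, red where higher without overlap and grey where the sides overlapped, and bars are list medians. Dotted lines mark a 2-fold difference. Interferon-stimulated genes sit mostly to the left (median -0.305) and luminal urothelial genes mostly to the right (median 0.293).

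Metallothioneins, small proteins that bind zinc and copper, were lower in the same arrays. This family was picked after its values were seen. Of 10 measured, 4 were called lower, 6 were lower without overlap, 0 were higher and the median was -0.645. Over all genes 0.632% were called lower and 13.8% were lower without overlap. MT2A read 10.93, 11.18 and 10.92 against 12.35 to 12.72, a difference of -1.52, and MT1X read 9.80, 10.05 and 9.82 against 11.11 to 11.51. MT1H differed by -1.19 and MT1HL1 by -1.01, and the probes of this family may read several of its close copies. The core of the metal response element was searched as TGCNCNC on both strands, counting promoters with at least 2 matches. The promoters of MT2A and MT1X are shown, with matches in capitals, since they hold 8 and 4 of them, MT2A at chr16:56608334-56608633 (+ strand) and MT1X at chr16:56682220-56682519 (+ strand).
MT2A: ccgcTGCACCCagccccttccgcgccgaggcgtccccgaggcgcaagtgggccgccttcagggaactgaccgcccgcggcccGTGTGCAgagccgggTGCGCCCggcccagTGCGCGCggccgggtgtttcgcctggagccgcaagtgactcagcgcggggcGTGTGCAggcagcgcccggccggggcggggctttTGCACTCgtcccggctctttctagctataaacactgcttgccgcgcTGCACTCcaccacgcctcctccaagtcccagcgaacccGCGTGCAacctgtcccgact
MT1X: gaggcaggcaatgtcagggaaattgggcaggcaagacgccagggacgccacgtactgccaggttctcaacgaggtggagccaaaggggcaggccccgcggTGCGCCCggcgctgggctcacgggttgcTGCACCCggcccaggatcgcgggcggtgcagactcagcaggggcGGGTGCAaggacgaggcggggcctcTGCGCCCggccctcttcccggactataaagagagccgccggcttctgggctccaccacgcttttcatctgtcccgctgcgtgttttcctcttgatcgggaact
All 3 called metallothioneins with a promoter sequence had at least 2 matches, against 27.9% of all promoters. Promoters of the uncalled metallothioneins were not counted, so called and uncalled members of the family were not compared.

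A stretch of chromosome 17 was lower on the ARMCX3-low arrays. It was found by a scan of all chromosomes in windows of 15 measured genes in RefSeq gene order, a scan chosen after the data had been seen. Of 19364 windows, 30 had a median difference of at least 0.5 in size, and all of them lay in 1 run of 52 genes on the short arm of chromosome 17, from TVP23C to PRPSAP2. The median difference of the run was -0.60. Of its genes, 37 were lower without overlap, 0 were higher, 10 were called lower and 46 were below 0. Over all genes 13.8% were lower without overlap and 0.632% were called lower. These same differences picked the windows, so a low median and many lower genes follow from how the run was found. The values describe the run and are no support for it. The other 1074 genes of the chromosome had a median of -0.010. Genes with a comparison mean of at least 8 numbered 31, of which 29 were lower without overlap and whose median was -0.85. CENPV, a centromere protein, had a mean of 9.12 ± 0.11 (SD, n = 3) against 11.05 ± 0.090 (SD, n = 6), and PRPSAP2, of nucleotide synthesis, read 10.12, 10.19 and 10.20 against 11.60 to 11.71. ZSWIM7 differed by -1.38, SMCR8, of autophagy, by -1.31, the mitochondrial assembly factor TTC19 by -1.15, the adenosine receptor ADORA2B by -1.03, and the lipid regulator SREBF1 by -0.76.

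The run was present on every ARMCX3-low array to a like degree. The median level of its genes, minus the mean of the comparison arrays, was -0.56, -0.59 and -0.63 on these arrays and -0.51, -0.51 and -0.43 on the 3 ARMCX3-low arrays with low TACC3. The first 3 of these values come from arrays that took part in finding the run. On the comparison arrays, whose mean was subtracted, it lay near 0 by construction, from -0.029 to 0.043. On the arrays that were neither ARMCX3-low nor comparison arrays it lay between -0.059 and 0.029. The 20 measured genes before the run had a median of 0.005 with 1 lower and 3 higher, and the 30 after it had a median of -0.127 with 13 lower and 0 higher. B9D1, a ciliary transition zone protein, at -2.59 (-1.72 over its probe sets), and the kinase MAPK7, at -1.58, were the called ones among those 30. TVP23B was called at -1.10, but it differed by -0.99 without the array labelled EGFP without doxycycline (replicate 2). TVP23B, TRIM16L, FAM106A and USP32P2 have near-identical copies in this region, and their values are uncertain.

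**Figure D4:**
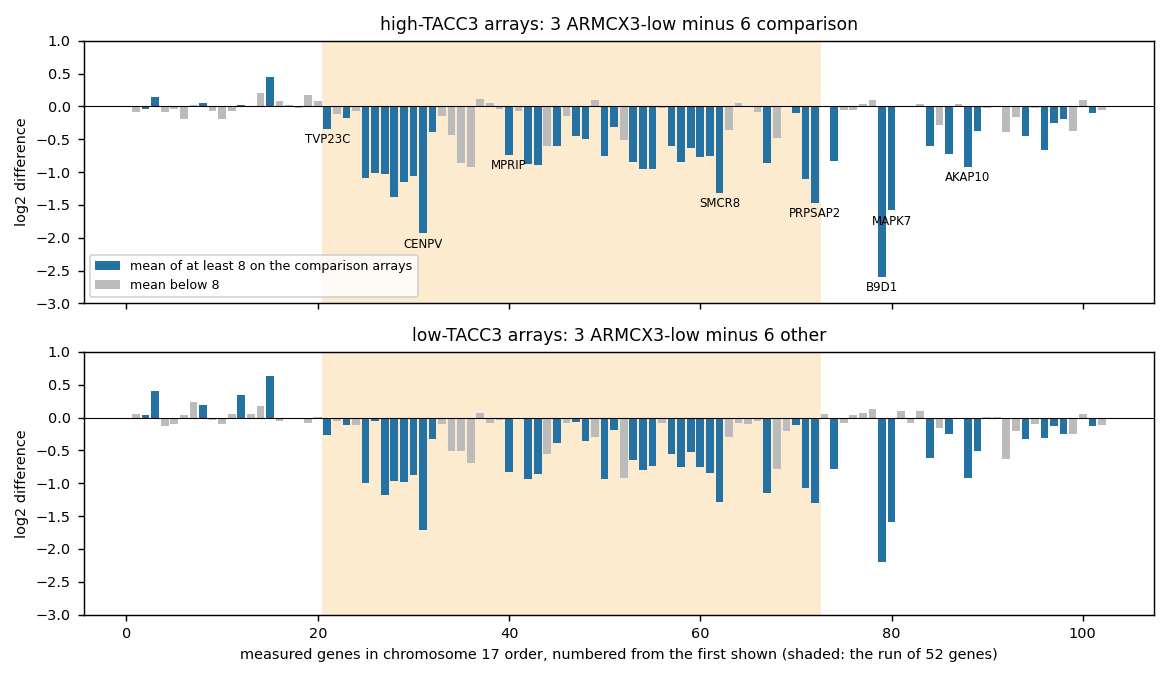
Log2 difference for measured genes in chromosome 17 order, high-TACC3 arrays above (3 ARMCX3-low minus 6 comparison) and low-TACC3 arrays below (3 ARMCX3-low minus 6 other); each bar is a gene, blue where its mean on the comparison arrays is at least 8 and grey where it is lower, and the shading marks the run of 52 genes. In the shaded run the blue bars point down in both panels, with medians over all 52 genes of -0.60 and -0.52. The differences of the upper panel picked the run.

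Luminal urothelial genes were higher. Of 27 measured, 2 were called higher, 20 were higher without overlap, 1 was lower and the median was 0.293. Over all genes 0.238% were called higher and 9.16% were higher without overlap. PSCA, a surface antigen of prostate and bladder epithelium, read 11.12, 11.31 and 11.26 against 9.58 to 9.70, or 3.02-fold. GRHL3, a transcription factor of the barrier epithelium, read 8.89, 8.87 and 8.86 against 7.71 to 8.01. Its difference of 1.00 is at the limit of a call, and it was 0.995, 0.988 and 0.972 without the arrays labelled EGFP without doxycycline (replicate 2), FGFR3 4-1 with doxycycline (replicate 3) and EGFP with doxycycline (replicate 2), which ended the call, as did taking all other high-TACC3 arrays as the reference (0.945). Uroplakins, the plaque proteins of the bladder surface, followed with smaller sizes: UPK2 by 0.92, UPK1A by 0.77, UPK1B by 0.71 and UPK3B by 0.71. CYP4B1 and TMPRSS2, further luminal genes, were higher by 0.92 and 0.86. GATA3 and PPARG, transcription factors of this state, were higher by only 0.06 and 0.08, though without overlap, and SNX31 was lower by a difference of -0.36. Basal genes split: of 16 measured, 6 were lower and 5 higher without overlap. KRT5 was lower, at -0.48, and LAMB3, a laminin chain, was higher, at 0.86. Among squamous and calcium-binding genes, SPRR3 read 9.72, 10.07 and 9.99 against 8.38 to 8.56, and S100A8 read 9.50, 9.63 and 9.61 against 7.70 to 7.95, with 2 of 27 called. CLDN8 and CLDN23, claudins of the tight junction, were called higher at 1.58 and 1.41, CEACAM5 at 1.09, and the protocadherin PCDH7 was called lower at -2.32. Averaged over all probe sets the differences of SPRR3 (0.79), CLDN23 (0.85) and PCDH7 (-0.95) were under 2-fold, and that of S100A8 was 1.03.

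Receptors, matrix and developmental genes showed smaller or mixed differences. Among 15 EGFR family receptors, ligands and regulators, 0 were called, 8 were higher without overlap and the median was 0.287: TGFA was higher by 0.45, EGF by 0.39, ERBB2 by 0.30 and LRIG1, a negative regulator, by 0.66, while ERBB4 was lower by a difference of -0.62. Of 24 MAPK output genes, 10 were lower and 2 higher without overlap, with SPRY2 at -0.90, ETV5 at -0.54 and DUSP4 at 0.57. Of 31 proteases and matrix genes, 13 were higher and 6 lower without overlap. Besides PLAU, MMP1 was higher by 0.82 and TIMP3 by 0.83, and COL4A2, a basement membrane collagen, read 8.80, 8.87 and 8.79 against 10.41 to 10.49, while THBS1 differed by -1.08. Homeobox genes included 13 of 35 lower without overlap, with HOXB8 at -1.77 and HOXB3 at -1.17 called. Retinoid and xenobiotic genes CYP4F3 and AKR1C2 were called higher at 1.33 and 1.09, and AKR1C1 read 0.99 higher, where probes may not separate the AKR1C copies. WNT5B, a WNT ligand, was called lower at -1.12, and IL1RN and LCN2, of the inflammatory response, were called higher at 1.25 and 1.16. Averaged over all probe sets of a gene, 6 of these calls were under 2-fold: THBS1 at -0.68, HOXB8 at -0.98, HOXB3 at -0.65, AKR1C2 at 0.73, WNT5B at -0.40 and IL1RN at 0.59. With all other high-TACC3 arrays as the reference LCN2 was under 2-fold, at 0.98.

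Proliferation and lipid synthesis genes were slightly lower. Of 26 mitosis genes 19 were lower without overlap and 0 higher, with a median of -0.241. KIF2C, a mitotic kinesin, differed by -0.39 and MCM5, of replication, by -0.40. Of 18 fatty acid synthesis genes 11 were lower and of 15 cholesterol synthesis genes 10 were lower, with medians of -0.217 and -0.161 and INSIG1 at -0.52. The median of G1 and S phase genes was -0.090. Between the sets with low TACC3 the medians of mitosis and of G1 and S phase genes were larger, at -0.81 and -0.71. That of fatty acid synthesis there was smaller, at -0.032, and that of cholesterol synthesis had the other sign, at 0.116. Those sets were not matched for TACC3, at 10.49 to 10.79 against 11.31 to 11.43, so ARMCX3 and TACC3 levels cannot be told apart there.

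The remaining pathway lists held no called gene. Their members were lower without overlap in 10.7% to 25% and higher in 6.25% to 22.6%, beside 13.8% and 9.16% of all genes, and nothing about these lists is read from the counts. FGF ligands, receptors and partners had 5 of 29 lower and 2 higher without overlap, with FGFBP1, which releases FGFs from the matrix, at -0.77. Of 24 epithelial-mesenchymal genes 6 were lower and 3 higher, with FN1, fibronectin, at -0.63. Of 31 genes of the TGF-beta and BMP pathway 5 were lower and 7 higher, with GDF15 at 0.72. Of 16 hedgehog pathway genes 3 were lower, GAS1 at -0.68 among them, and 1 higher. GAS1 took part in choosing the comparison arrays, and its other probe sets overlapped, at 0.046 and 0.054. Cell cycle inhibitors, D cyclins and p53 targets had 4 of 22 lower and 4 higher, with CDK6 at -0.73, and chromatin silencing genes had 3 of 28 lower and 2 higher, with TET1, a demethylating enzyme, at -0.32.

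Levels of 9 urothelial markers averaged 12.50 to 12.55 on the ARMCX3-low arrays and 12.26 to 12.37 on the comparison arrays, so the markers of the labelled cell type were high on both sides. The markers of fibroblasts averaged 7.65 to 7.74 against 7.63 to 7.73 over 10 genes, those of leukocytes 6.84 to 6.89 against 6.74 to 6.87 over 9, and those of endothelium 7.31 to 7.36 against 7.26 to 7.34 over 6. LUM alone of the fibroblast markers was high on the probe set used, at 13.13 to 13.36 against 12.84 to 13.07. Its other probe set was far dimmer, with means of 9.12 and 8.66, so the level of LUM is uncertain. LYZ, of leukocytes, differed by 0.83 and stayed low, at 6.60 to 7.10. The difference between 3' and 5' probe sets, a measure of RNA quality, was 0.79 to 0.87 for ACTB and 0.26 to 0.29 for GAPDH on the ARMCX3-low arrays and 0.73 to 0.94 and 0.23 to 0.27 on the comparison arrays. Its part in the results was not tested.

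The same genes were then read on arrays that had not chosen them, 9 arrays with TACC3 below 11.6, of which 3 had a low ARMCX3 level. These sets too were formed by ARMCX3, so no test was made and ARMCX3 itself shows nothing there. Unlike the 2 sides, they also differed in TACC3 without overlap, at 10.49 to 10.79 against 11.31 to 11.43. The GAPDH difference between 3' and 5' probe sets was 0.37 to 0.42 against 0.28 to 0.38. The parts of ARMCX3, TACC3 and RNA quality cannot be told apart in these sets. Of the 172 called genes, 167 differed in the same direction there and 152 did not overlap in that direction, 108 of 125 lower and 44 of 47 higher; over all genes 27.5% did not overlap, 11.5% lower and 15.9% higher. C16orf54 differed by -5.72, ARMCX6 by -3.38, LRRN1 by -4.16 and PSCA by 1.48. The 6 arrays of high TACC3 in neither side gave a further view, but against the same 3 ARMCX3-low arrays that chose the genes, so the count is a description only. There 149 of the 172 genes lay outside on the same side, which is 0.753% of all genes, and 15.2% of all genes lay outside in either direction with no fold limit. EFEMP1, an extracellular matrix protein, was not among the 149: it read 8.22, 8.24 and 8.25 against 6.09 to 6.37 on the comparison arrays (a difference of 2.03, or 1.10 over its probe sets), and from 8.53 to 9.69 on the other high-TACC3 arrays.

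**Figure D5:**
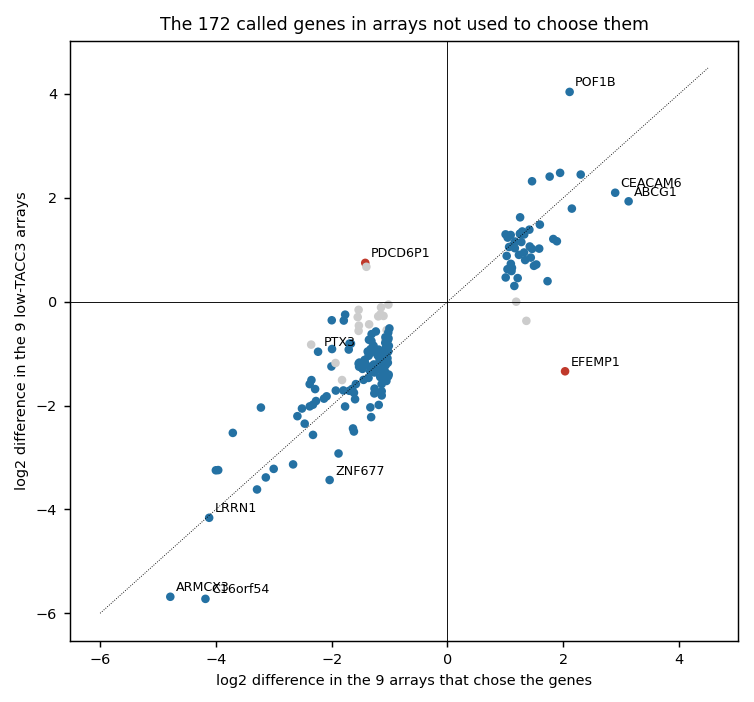
Log2 difference of the called genes between the 9 arrays that chose them (horizontal axis) and between the 3 ARMCX3-low and 6 other arrays with low TACC3 (vertical axis); points are genes, blue where the low-TACC3 sets did not overlap in the same direction, grey where they overlapped and red where they did not overlap in the opposite direction, and the dotted line marks equal differences. Most points lie in the lower left and upper right parts of the plot (167 of 172 share their direction), with EFEMP1 and PDCD6P1 as the red ones.

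Levels over the 15 arrays the rule had not used gave the genes most like ARMCX3, by Pearson correlation over arrays that fall into separate clusters, so only their order is used. The most alike were ARMCX6, MAPRE2, TVP23B and UBB, and the most opposite were CST6, AKR1C1, COXFA4L3 and SPRR3. MAPRE2, which binds growing microtubule ends, read 7.60, 7.41 and 7.38 on the ARMCX3-low arrays against 8.62 to 8.78, and averaged over its probe sets it differed by -0.56. UBB, a ubiquitin gene within the chromosome 17 run, read 13.95, 13.99 and 14.07 against 14.37 to 14.41.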

How the data were processed

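The authors deposited log2 expression values of 54675 Affymetrix probe sets for 24 arrays of RT112 cells. Per the submitters' processing notes, these came from RMA and the affy package, whose versions are not given there. RMA forces all arrays to nearly 1 distribution of values, so a change shared by most genes is lost. Array medians ran from 6.98 to 7.08, and 0 pairs of arrays were identical. Precision is limited by how many arrays each set holds, since arrays have no depth of reads.

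Probe sets with 1 symbol in the platform annotation (41097) were used, others were not (1801 with several symbols, 11777 with none), and 41043 matched a RefSeq gene table of GRCh38.p14, which gave names and gene order. The probe set with the highest mean over all arrays stood for a gene, which left 19775 genes. Coordinates are given for the printed promoters alone, in GRCh38.p14. None are given for probe sets or whole genes, since no build is named with the values.

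Sides were compared by differences of means, ranges and SDs, with Python 3.11.15. The labelled groups were tested with limma 3.58.1 in R 4.3.3, in 1 model of 8 groups (residual degrees of freedom 16, prior 3.13), as an F-test among the 4 lines and as the doxycycline contrast, adjusted by Benjamini-Hochberg over all genes. Calls and fits were tested on simulated data. The noise for the fits was independent between arrays and smaller than the spread within labelled groups. So the simulation does not show what the labelled tests could find in these arrays. Alternatives changed the fold limit, the probe set rule, a filter on dim genes, the reference arrays and the centring, added array weights or a replicate block, and left out each array.

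The arrays, members and gene lists were chosen with earlier results of these data known. Genes named by rule were ARMCX3, TACC3, FGFR3, GAS1, the 12 largest called differences each way, up to 4 called members of each list or else its largest, the 4 genes most and the 4 least correlated with ARMCX3, and its 6 neighbours on each side, 80 in all. Every other gene named, among them further list members, the metallothioneins and those of chromosome 17, was chosen after its values were seen.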

Additional observations from a re-analysis of the deposited data

Results flagged for a closer look

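Among the 80 genes named by rule, 1 had an array apart from its fellows within the 6 comparison arrays. HCLS1 read 10.46 on the array labelled FGFR3 2-4 with doxycycline (replicate 1), against 10.39 to 10.41 on the other 5. That gap was 0.724 of the range, above Dixon's 95% value for 6 samples, and chance alone singles out about 1 group in 20. The gap is small beside the difference of HCLS1 between the sides.

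For 2 called genes the sets with low TACC3 ran the opposite way, every array included. PDCD6P1, a pseudogene, differed by -1.421 between the sides and by 0.75 between the ARMCX3-low and other arrays with low TACC3. It read 7.31, 7.56 and 7.40 on the ARMCX3-low arrays, 8.75 to 8.97 on the comparison arrays and 6.40 to 6.91 on the other high-TACC3 arrays. EFEMP1 differed by 2.031 between the sides and by -1.34 with low TACC3. In both genes the comparison arrays were also apart from the other high-TACC3 arrays. The difference between the 2 contrasts was not tested.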

How the results depend on the processing

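The count of called genes moved with the fold limit. At 1.5-fold 575 genes were called, 555 with the same direction in the low-TACC3 arrays and 491 also outside the other high-TACC3 arrays, and at 4-fold the counts were 33, 32 and 29. The other ARMCX3 probe set gave -5.026. With each array left out in turn, the ARMCX3 difference ran from -4.85 to -4.70, the called genes from 170 to 180, those with the same direction from 165 to 174, and those outside the other high-TACC3 arrays from 147 to 156. With the mean of all probe sets of a gene 122 genes were called, 114 of them among the 172. With all other high-TACC3 arrays as the reference 142 were called, 127 of them shared, and with arrays centred on their medians 174, 171 shared. Of 191 further probe sets of 102 called genes, 128 did not overlap in the same direction, 0 in the opposite direction and 63 overlapped. Of the 80 genes named by rule, 45 were called, and none of those changed direction under the alternatives run. The other called genes were not checked in this way. Among the named genes, 3 uncalled ones (ARMCX2, ARMCX4 and RPL36A) changed direction. So did 8 list medians, those of NF-kappaB, TGF-beta, WNT, cancer testis, chromatin silencing, epithelial-mesenchymal, fibroblast and leukocyte genes. The reported values of all these were at most 0.0661 in size. Of 960 values of named genes 61 moved by more than 1 SD, and of 360 list medians 18 changed sign or moved by over 0.1. Fitted with the replicate number as a block, the labelled tests gave 0 and 0 genes, as did array weights, the filter on dim genes, the mean of probe sets and each of 24 omitted arrays. Not every same-numbered pair of arrays deviated together, so the numbers were not taken to pair the samples: over 84 such pairs the correlation of deviations ran from -0.726 to 0.876 with a median of 0.127, against a median of -0.0147 between other numbers. It was above 0.1 in 43 pairs, and 12 of 24 arrays correlated best with their own number, a hint from the data and not from the design.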

Other observations

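Further called genes, chosen after their values were seen, fall outside the lists described. TMLHE, the first enzyme of carnitine synthesis, read 5.76, 6.19 and 5.66 on the ARMCX3-low arrays against 8.25 to 8.43 on the comparison arrays, and carbonic anhydrase CA2 read 6.35, 6.77 and 6.59 against 8.91 to 9.02. The growth factor genes PDGFC and PDGFD were lower by differences of -2.32 and -1.23. WLS, which carries WNT proteins to the surface, was lower at -2.13, the thrombin receptor F2R at -1.88, the Notch ligand DLL1 at -1.45, the insulin receptor substrate IRS1 at -1.32 and the chromatin protein HMGA2 at -1.14. Several of these rest on the probe set used. The other probe set of DLL1 overlapped (-0.045), and those of PDGFC, PDGFD and F2R differed by -0.67, -0.27 and -0.33. The other HMGA2 probe sets differed by -0.30 to 0.061. TMLHE, CA2, PDGFC and F2R did not overlap in the same direction on the low-TACC3 arrays, with differences there of -2.35, -1.59, -1.98 and -2.92.

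On the higher side HPGD, which breaks down prostaglandins, read 12.79, 12.84 and 12.87 against 11.39 to 11.65, and BCAS1 read 11.17, 11.34 and 11.44 against 9.76 to 10.05. SEMA3C, a secreted guidance protein, was higher by 1.49, the water channel AQP3 by 1.14 and the MAPK phosphatase genes DUSP10 and DUSP9 by 1.11 and 1.04. Other probe sets differed less, by 0.73 for SEMA3C, 0.48 and 0.29 for AQP3 and 0.92 for DUSP10.

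Promoters of the called genes differed in their content of the CG dinucleotide. At least 15 CG in 300 bases were present in 66.4% of the 15384 promoters with a sequence, in 70 of 100 of called lower genes (70.0%) and in 10 of 34 of called higher genes (29.4%). The median counts were 22, 21 and 5. This is a description, with no test, of a count chosen after the data had been seen.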
